A study of Mus musculus with 12 samples.

Results

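The transcripts described here are putative mouse noncoding RNAs whose listed match in a noncoding RNA database is a human long noncoding RNA (lncRNA) entry. They were chosen by the species named in the match text, without reference to their expression, and number 178 of the 42452 transcripts listed in the data. For comparison, 948 transcripts match a mouse lncRNA entry, 9726 have another match and 31600 are predicted transcripts with no match. The data are RNA sequencing of kidney from Smad3 KO and WT mice on C57BL/6J, and the series asks which genes are tied to TGF-beta and Smad3 in renal inflammation and fibrosis. The 6 groups were KO UUO, KO anti-GBM, KO normal, WT UUO, WT anti-GBM and WT normal, with 2 libraries each. UUO, unilateral ureteral obstruction, was made by tying off the left ureter; these kidneys were taken at day 5, from groups of 8 mice that held both sexes. The labels do not say which of those mice the 2 libraries come from, or whether animals were pooled. Anti-GBM mice received sheep globulin against mouse glomerular basement membrane at 60 μg per g body weight after they had been immunized with sheep IgG mixed with Freund's complete adjuvant, and day 10 is given for them. The normal groups are labelled as normal kidney, while the UUO protocol names sham-operated controls. Which controls these libraries are is not clear from the labels. The labels do not give the design of the Smad3 KO allele or the animals' ages. Nothing in the labels gives a batch or a link between single animals of different groups.

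Long noncoding RNAs are transcripts that are not translated into a long protein, and many act in the nucleus on chromatin or splicing, or serve as hosts for small RNAs. An mRNA-like lncRNA, the most frequent class here, is one that is capped, spliced and polyadenylated as an mRNA is. Such RNAs are conserved between species far less in sequence than coding genes, and their levels are often specific to a cell type. Smad3 relays TGF-beta signals from the receptor to target genes, and in the kidney it is known for driving the matrix genes of fibrosis.

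Of the 178 transcripts, 127 matched entries of the class mRNAlike lncRNA, 42 of the class lncRNA and 9 of the class lincRNA (intergenic lncRNA). They were long: the median length was 2897 bases, with a range of 150 to 19720, against a median of 1548.5 bases for the transcripts matched to mouse lncRNA entries and 581 for all transcripts. For all transcripts with a database match the median was 2079.5 bases. They matched 108 different database entries. Of these, 70 entries had 1 transcript and 38 had more, up to 5 transcripts for one entry, so that 108 of the 178 transcripts share an entry with another. The text of the matches gives no gene name, no position in the genome and no strand, so each transcript is called here by its number. A search of the match text for 25 known lncRNA names, such as Malat1 and Xist, found none of them here, and without gene names in that text this does not show that such RNAs are absent. Reads of transcripts that overlap or share sequence could have been split between them, which makes the values of transcripts of one entry uncertain.

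Library depth, counted as uniquely mapped reads on all listed transcripts, lay between 4595261 and 7342937. The human-entry transcripts held between 1.00% and 1.72% of those reads. A ratio of the length covered by reads to the length that randomly placed reads would be expected to cover, taken over transcripts of middling read number, was 0.285 in KO UUO 1, 0.338 in KO anti-GBM 1 and 0.447 in WT UUO 1, against 0.636 to 0.911 in the other 9 libraries. These 3 are called the libraries of low breadth below. The tables hold no protein-coding genes. Of the kidney and cell type markers looked for by name, only elements or precursors of mir-200, Spi1, vimentin, Ctgf and renin were found, with 1 transcript each. The search used fixed spellings, so a marker listed under another spelling, as may hold for mir-155, would be missed. The tissue could therefore not be checked against its defining markers.

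The abundance of the human-entry transcripts was very uneven. Together they held 1010288 reads over the 12 libraries, and the 5 with most reads held 44.8% of them. Mean RPKM, which is reads scaled by transcript length and by the library's total, was 100 or more for 18 transcripts, from 10 to 100 for 42, from 1 to 10 for 61 and below 1 for 57. In all, 115 were listed in each of the 12 libraries, 80 had 1000 or more reads in sum and 50 had under 100. The low-count filter of the tests kept 140 of them and left out 38, none of which had more than 72 reads in sum.

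The most abundant per length was ncRNA_aligned_35 (687 bases, mRNAlike lncRNA, entry BC070230), with a mean level of 1033 ± 299 RPKM (SD, n = 12). Its level was 610, 823, 855, 1376, 1508 and 1338 RPKM in the KO libraries (UUO 1 and 2, anti-GBM 1 and 2, normal 1 and 2) and 642, 1046, 1346, 964, 1052 and 836 RPKM in the WT libraries in the same order. The UUO libraries of low breadth were the lowest of their genotype, and KO and WT overlapped. Next came ncRNA_aligned_5864 (3400 bases, entry X06981) with 783 ± 312 RPKM, ncRNA_aligned_6552 (1146 bases, class lncRNA) with 538 ± 176 RPKM and ncRNA_aligned_7830 (753 bases, entry CR599628) with 474 ± 293 RPKM. The first of these carries an RFAM family name of an internal ribosome entry site, an RNA element that lets ribosomes start inside a message. The others of the 10 highest were ncRNA_aligned_2192 at 408 ± 252 RPKM, ncRNA_aligned_2190 at 202 ± 237, ncRNA_aligned_882 at 195 ± 108, ncRNA_aligned_3409 at 182 ± 31.7, ncRNA_aligned_3570 at 171 ± 101 and ncRNA_aligned_2316 at 170 ± 41.2. Neighbours in this order lie within 1 SD of each other. The SD of ncRNA_aligned_2190 is larger than its mean, and that of ncRNA_aligned_3409, the longest of the 10 with 7964 bases, is the smallest relative to its mean.

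**Figure D1:**
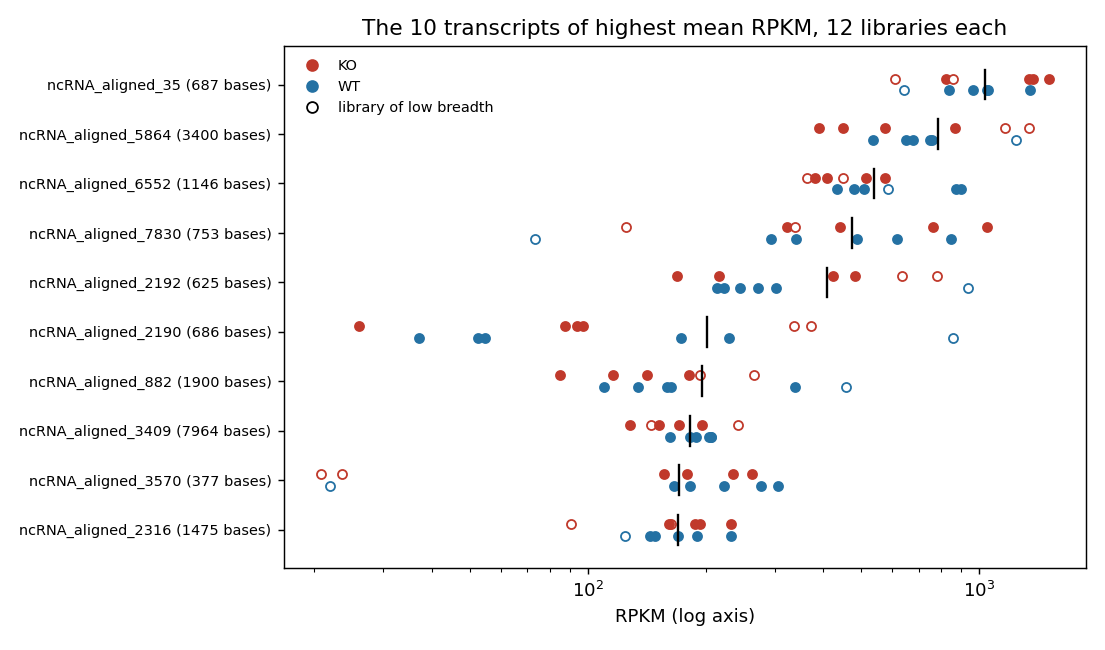
RPKM (log axis) in each of the 12 libraries of the 10 human-entry transcripts of highest mean RPKM, ordered by that mean (black bar), with KO in red above WT in blue and the 3 libraries of low breadth as open circles. The open circles lie at the low end for ncRNA_aligned_3570 and at the high end for ncRNA_aligned_2190.

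How far the groups differed can be put as the ratio of the highest to the lowest group mean in CPM (counts scaled to a common library size after TMM, which adjusts that size for composition). Over the 84 transcripts with a mean of 10 CPM or more the median ratio was 2.54, with a range of 1.22 to 16.4. It was under 2 for 22 transcripts and 5 or more for 13. The steadiest was ncRNA_aligned_5675 (7260 bases, entry AK125169), with group means of 342 ± 117 in KO UUO, 304 ± 38.8 in KO anti-GBM, 282 ± 16.3 in KO normal, 314 ± 48.8 in WT UUO, 303 ± 131 in WT anti-GBM and 343 ± 22.5 CPM in WT normal (SD, n = 2 each). Those group means differ by less than the spread between the 2 KO UUO libraries. The ratio was 1.24 for ncRNA_aligned_4861, 1.35 for ncRNA_aligned_9031, 1.39 for ncRNA_aligned_6552 and 1.57 for ncRNA_aligned_1636. The largest ratios were those of ncRNA_aligned_7620 (16.4), ncRNA_aligned_4610 (10.5), ncRNA_aligned_2774 (9.72), ncRNA_aligned_7558 (9.01) and ncRNA_aligned_6502 (8.87).

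Several of those large ratios moved with the libraries of low breadth. ncRNA_aligned_4610 (936 bases, entry AL137373) had 54, 8 and 6 reads in KO UUO 1, KO anti-GBM 1 and WT UUO 1, while the other 9 libraries had 462 to 1017. ncRNA_aligned_3570 (377 bases) had 58, 41 and 38 reads in the same 3, against 359 to 724. In the other direction, ncRNA_aligned_2190 (686 bases) had 1507, 1337 and 2708 reads in the 3 libraries, against 109 to 1112 in the other 9. In CPM, 19 of the 140 tested transcripts (13.6%) were lower in all 3 libraries of low breadth than in any of the other 9, against 8.24% of all tested transcripts, and 15 (10.7%) were higher in all 3, against 3.74%. The 19 low ones included ncRNA_aligned_7652, ncRNA_aligned_7750 and ncRNA_aligned_7751, of 546 to 638 bases, and the 15 high ones included ncRNA_aligned_7558, ncRNA_aligned_7620 and ncRNA_aligned_8121. ncRNA_aligned_7558 (8321 bases, entry BC032061) had 31.5, 97.4 and 55.4 CPM in the 3 libraries, against 4.55 to 20.7 CPM in the others. Since these libraries belong to 3 groups, each comparison that uses KO UUO, KO anti-GBM or WT UUO is given below with the 12 libraries and with the 9 others alone, where such a group is left with 1 library that is assumed to vary like the rest.

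**Figure D2:**
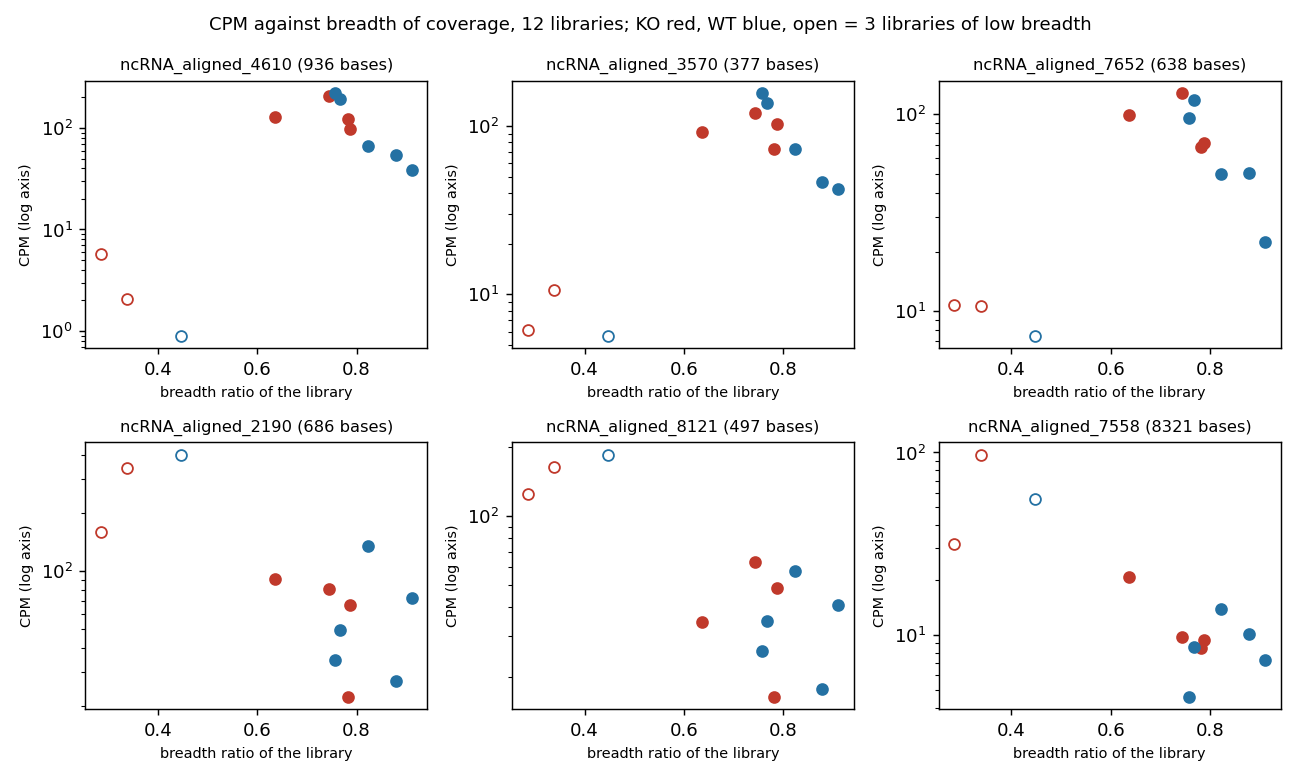
CPM (log axis) of 6 human-entry transcripts against the breadth ratio of the library, 12 libraries each, KO in red and WT in blue, with the 3 libraries of low breadth as open circles. The open circles of ncRNA_aligned_4610, ncRNA_aligned_3570 and ncRNA_aligned_7652 lie below all others and those of ncRNA_aligned_2190, ncRNA_aligned_8121 and ncRNA_aligned_7558 above them.

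The clearest difference between genotypes was in ncRNA_aligned_2133 (5262 bases, mRNAlike lncRNA, entry EU016553), which earlier work on these data had already singled out. It had 0 reads in each of the 6 KO libraries. The WT libraries had 177 and 113 reads after UUO, 46 and 46 in anti-GBM disease and 60 and 37 in normal kidney. No KO library overlaps a WT library. With KO set at a floor of 3 reads over both libraries of a state, its level was at least 91.9-fold higher in WT for UUO, at least 15.9-fold for anti-GBM and at least 32.4-fold for normal kidney. These bounds depend on each library's depth and level: for UUO the bound was 35.7-fold without KO UUO 1, 56.1-fold without KO UUO 2 and 48.6-fold without WT UUO 1, of which KO UUO 1 and WT UUO 1 are of low breadth. It was 8.99-fold without KO anti-GBM 1 and 6.87-fold without KO anti-GBM 2 for anti-GBM, and 15.3-fold without KO normal 1 and 17.1-fold without KO normal 2 for normal kidney. Floors and intervals allow for counting error alone and not for the spread between libraries. PCR copies of a molecule are counted as separate reads, so the counting error itself may be understated.

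The quasi-likelihood test of edgeR, adjusted by the Benjamini-Hochberg method over the 24816 transcripts tested, called it lower in KO when the 3 states were averaged, with an adjusted p of 6.57e-05. It was the only human-entry transcript called in that comparison, where 0.00806% of all tested transcripts were called lower and 0.0322% higher, 0.0403% in all. At an unadjusted p under 0.05, 11 human-entry transcripts were higher and 2 lower in KO, against 2.99% and 6.09% of all transcripts, 9.08% together. Within states the adjusted p was 0.021 for UUO, 0.0619 for anti-GBM and 0.0579 for normal kidney, so only UUO passed 0.05. In UUO the call was lost without KO UUO 1, WT UUO 1, WT normal 1 or WT normal 2, with a highest adjusted p of 0.08, with a stricter low-count filter (adjusted p = 0.0501) and with the 4 UUO libraries fitted alone (adjusted p = 1). Without the libraries of low breadth the adjusted p was 0.00338 for UUO, 0.00316 for anti-GBM and 2.59e-05 for normal kidney. In these bulk samples, fewer cells of a type and less RNA per cell cannot be told apart.

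What this difference rests on can be read beside ncRNA_aligned_2134, the other transcript of the same entry, which is 5247 bases long, 15 bases shorter. It had reads in all 12 libraries. In KO it had 180 and 59 reads in UUO, 34 and 37 in anti-GBM and 28 and 39 in normal kidney. In WT it had 107 and 100, 70 and 56, and 48 and 42 reads in the same order. Its mean level was 9.94 ± 4.75 CPM in KO and 9.72 ± 3.34 CPM in WT (SD, n = 6), and the groups overlapped in every state.

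Of the reads on both transcripts of the entry, ncRNA_aligned_2133 took 0 of 377 in KO, a share that the floor of 3 reads limits to 0.796%, against 39.7% to 62.3% in the WT libraries. The 95% exact binomial interval of that share was 30.7 to 49.2% in the WT library with the lowest value, WT anti-GBM 1, and 56.4 to 68.0% in the highest, WT UUO 1. These 2 transcripts, together with the lack of a recorded strand and of positions, mean that reads could pass between them, and that was not tested. Both carry the RFAM name IRES_VEGF_A, an internal ribosome entry site of a growth factor message.

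The reads of ncRNA_aligned_2133 lay on a small part of its length, and where along it is not given. In WT UUO 1 its 177 reads of 90 bases covered 8.59% of its length, or 452 bases, where randomly placed reads would be expected to cover 95.2%. In the other 5 WT libraries they covered 9.14% to 12.3%, or 481 to 646 bases. ncRNA_aligned_2134 was covered over 5.28% to 17.6% of its length. The values of this pair therefore describe short segments and not the length of the transcripts.

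**Figure D3:**
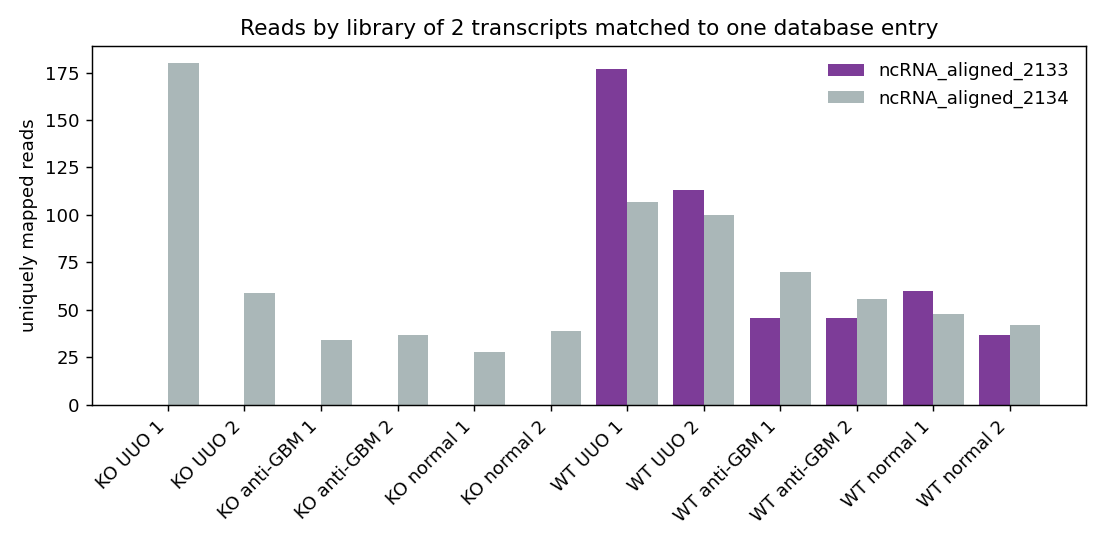
Uniquely mapped reads of ncRNA_aligned_2133 and ncRNA_aligned_2134 in the 12 libraries, KO libraries left of WT libraries. The bars of ncRNA_aligned_2133 are at 0 in all 6 KO libraries and between 37 and 177 in WT, while ncRNA_aligned_2134 has between 28 and 180 reads in every library.

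Over the whole table, the transcripts whose log2 CPM profile over the 12 libraries was most like that of ncRNA_aligned_2133 were the predicted transcripts ncRNA_predict_2033 (391 bases, r = 0.912), ncRNA_predict_31993 (830 bases, r = 0.904) and ncRNA_predict_29496 (267 bases, r = 0.903). These values are a description over 12 libraries that share the split into genotypes. The 3 transcripts had few reads, with at most 4 in any KO library and between 4 and 34 in the WT libraries.

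A further 2 transcripts were at 0 in one group and at 10 or more reads in each library of the group it was compared with. ncRNA_aligned_10785 (301 bases, entry U13222) had 14 and 11 reads in KO anti-GBM and 0 in both WT anti-GBM libraries. ncRNA_aligned_2682 (5564 bases, entry EF491796) had 0 in both KO anti-GBM libraries, against 16 and 15 reads in WT anti-GBM. Neither was called, with adjusted p = 0.268 and 0.285 in edgeR. The other 2 transcripts of entry EF491796, ncRNA_aligned_2678 and ncRNA_aligned_2680, were also at 0 in KO anti-GBM 2, and all 3 were at 0 in KO normal 2. Summed over the entry, KO libraries had 132 and 119 reads in UUO, 22 and 0 in anti-GBM and 92 and 0 in normal kidney, against 25 and 141, 116 and 94, and 97 and 112 reads in WT. The zeros were thus in 1 of 2 libraries of a KO group, with the partner library at 22 or 92 reads.

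Obstruction of WT kidneys was the comparison between states with calls among the human-entry transcripts. In WT UUO against WT normal, 3 of 140 were called lower and none higher, against 1.74% lower and 0.681% higher of all transcripts tested, 2.42% in all. ncRNA_aligned_6502 (1597 bases, mRNAlike lncRNA, entry X68879) had 15 and 9.32 CPM in WT UUO, against 66.5 and 70.5 CPM in WT normal. Its log2 fold change was -2.49 ± 0.53 (SE), with an adjusted p of 0.00924 in edgeR. The groups do not overlap, and both libraries of WT UUO lie far below WT normal.

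ncRNA_aligned_3427 (2338 bases, entry U60118) had 15.8 and 6.46 CPM in WT UUO, against 50.5 and 56.6 CPM in WT normal, a log2 fold change of -2.27 ± 0.57 (SE, adjusted p = 0.031 in edgeR). ncRNA_aligned_4253 (11373 bases, entry BC038512) had 128 and 197 CPM in WT UUO, against 534 and 660 CPM in WT normal, a log2 fold change of -1.88 ± 0.47 (SE, adjusted p = 0.0308 in edgeR). The groups do not overlap in either. The RFAM name of ncRNA_aligned_4253 is SRP_euk_arch, the model of the RNA of the signal recognition particle, which brings ribosomes to the membrane during secretion. Reads covered 76.8% to 99.3% of its length in the WT UUO and WT normal libraries, and 19.5% to 37.7% of that of ncRNA_aligned_3427. For ncRNA_aligned_3427 randomly placed reads would be expected to cover at least 94.8% in those libraries. Its values, here and below, therefore describe parts of the transcript and not its whole length.

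The transcripts that came closest without a call were ncRNA_aligned_2717 (8452 bases, entry AF090425), ncRNA_aligned_7620 and ncRNA_aligned_7830, which were picked after their values were seen. ncRNA_aligned_2717 had 8.05 and 13.9 CPM in WT UUO and 49.6 and 66.8 CPM in WT normal, with an adjusted p of 0.0505. Over the 12 libraries its reads covered only 4.9% to 8.73% of its length, or 414 to 738 bases. Randomly placed reads would be expected to cover 96.2% in WT normal 2, so its values, here and below, describe short segments and not the whole transcript. ncRNA_aligned_7830 had 37.8 and 136 CPM in WT UUO and 844 and 630 CPM in WT normal, with an adjusted p of 0.077. ncRNA_aligned_7620 (4013 bases, entry AJ844628) had 44.4 and 8.56 CPM in WT UUO and 1.28 and 1.95 CPM in WT normal, with an adjusted p of 0.0766. WT UUO 1, of low breadth, is the lower of its pair for ncRNA_aligned_7830 and the higher one for ncRNA_aligned_7620. At an unadjusted p under 0.05, 41 of the 140 transcripts passed, 29 lower and 12 higher in WT UUO, against 8.34% lower and 7.48% higher of all transcripts tested, 15.8% in all. Of the tested transcripts matched to mouse lncRNA entries, 24.7% passed.

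With the 9 libraries of higher breadth, 18 human-entry transcripts were called lower and 6 higher in WT UUO, against 6.33% and 4.49% of all transcripts, 10.8% in all, and the 3 calls above were among them. Among the 18, ncRNA_aligned_7830 fell by 2.44 ± 0.41 and ncRNA_aligned_4610 by 2.42 ± 0.43 on the log2 scale (SE), with adjusted p of 8.97e-05 and 0.00018 in edgeR. Among the 6, ncRNA_aligned_2022 (2415 bases, entry CR592208) rose by 1.28 ± 0.40 and ncRNA_aligned_7619 by 2.38 ± 0.61, with adjusted p of 0.0311 and 0.0084. WT UUO is then 1 library, WT UUO 2.

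**Figure D4:**
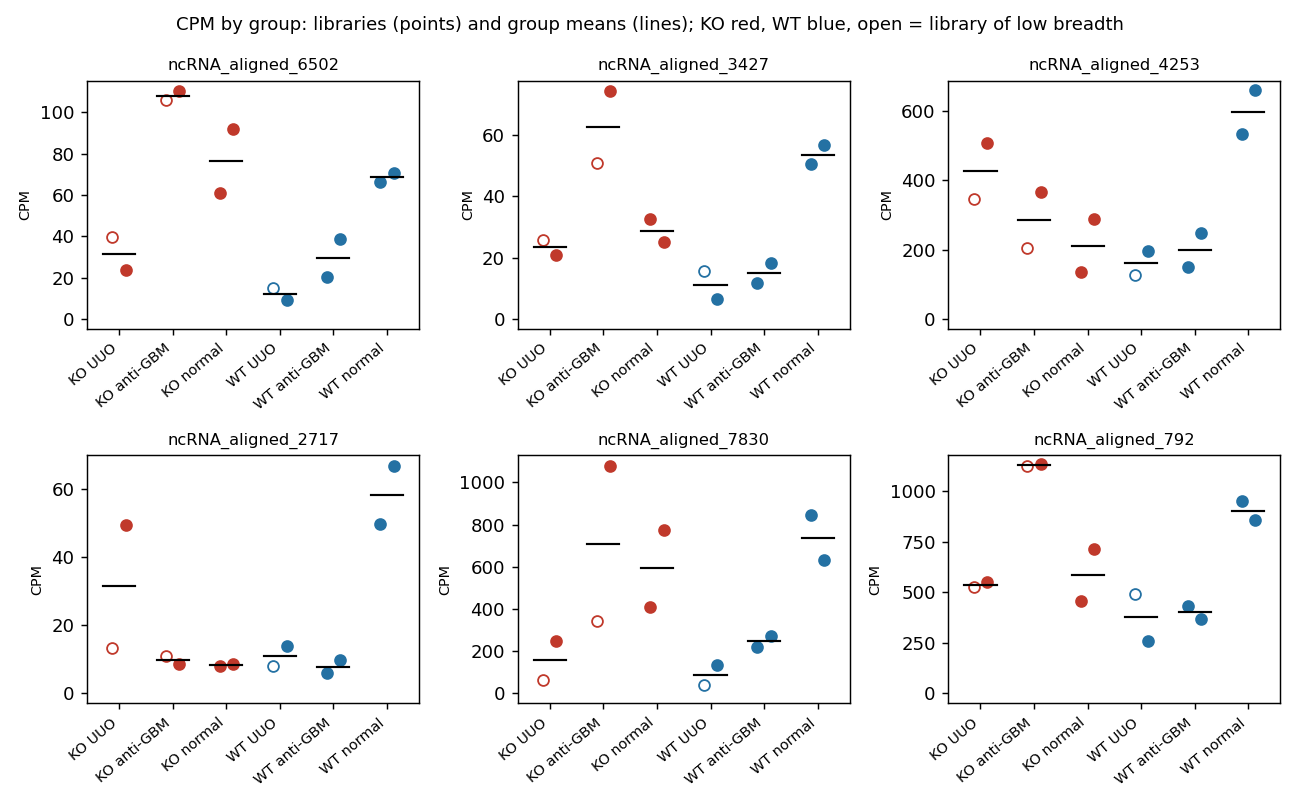
CPM of 6 human-entry transcripts in the 6 groups, with a point for each library, a line at each group mean, KO in red, WT in blue and the libraries of low breadth open. In the 3 transcripts of the upper row both WT UUO points lie below both WT normal points.

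The scaling sets the zero line of these fold changes. Over all 24816 tested transcripts the median log2 fold change of WT UUO against WT normal was 0.49 with TMM and 1.55 with library size alone, a shift of 1.06. The median of the 140 human-entry transcripts was -0.37 with TMM and 0.69 with library size alone, which is 0.87 and 0.86 below the median of all transcripts. For the 695 tested transcripts matched to mouse lncRNA entries it was -0.66 with TMM, so a median below that of all transcripts is not particular to the human entries. With library size alone, 10 human-entry transcripts were called higher and none lower, in place of 3 lower, and the 3 lower transcripts were not called (adjusted p from 0.109 to 0.24). The share of all transcripts called with library size alone is not given, so the 10 cannot be set against it. The fold changes of the 3 lower transcripts stayed below 0, and relative to the median of all transcripts that of ncRNA_aligned_6502 was -2.98 with TMM and -3.0 with library size alone. The direction of the human-entry transcripts in this comparison is thus relative to the other transcripts of the table. The 3 calls also rest on single libraries: each was lost without WT UUO 2, WT normal 1 or WT normal 2, and those of ncRNA_aligned_6502 and ncRNA_aligned_4253 also without WT UUO 1, while that of ncRNA_aligned_3427 was lost without either KO normal library, with DESeq2 size factors (adjusted p = 0.0539) and with the 4 libraries of the compared groups alone (adjusted p = 0.0595). Over the fits with 1 library left out, the highest adjusted p was 0.0977, 0.245 and 0.309 for ncRNA_aligned_6502, ncRNA_aligned_3427 and ncRNA_aligned_4253.

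In WT anti-GBM against WT normal none of the 140 was called by edgeR and 2 by DESeq2, where edgeR called 0.0121% of all transcripts lower and 0.00806% higher, 0.0201% in all. At an unadjusted p under 0.05, 11 were lower and 5 higher, against 3.08% and 3.48% of all, 6.56% together. Among transcripts averaging 10 CPM or more over the 4 libraries, the 3 largest differences between groups that did not overlap were lower in WT anti-GBM, and below that level ncRNA_aligned_7619 had 23.2 and 8.39 CPM in WT anti-GBM and 2.78 and 3.47 CPM in WT normal (adjusted p = 0.531). ncRNA_aligned_2717 had 5.98 and 9.7 CPM in WT anti-GBM and 49.6 and 66.8 CPM in WT normal, a log2 fold change of -2.89 ± 0.67 (SE, adjusted p = 0.146). ncRNA_aligned_3427 had 11.6 and 18.1 CPM in WT anti-GBM and 50.5 and 56.6 CPM in WT normal (adjusted p = 0.34), and ncRNA_aligned_4610 had 66.5 and 54.7 CPM in WT anti-GBM and 194 and 220 CPM in WT normal (adjusted p = 0.943). This comparison shares its WT normal libraries with that of WT UUO, so the pair of comparisons is not independent.

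Both libraries of both groups here are of higher breadth. With the 9 libraries of higher breadth, 15 human-entry transcripts were called lower and 4 higher, against 3.68% and 2.84% of all transcripts, 6.51% in all, and with the 4 libraries of these 2 groups alone 17 were called lower and 3 higher. In the 9 libraries, ncRNA_aligned_2717 fell by 2.85 ± 0.41 and ncRNA_aligned_4610 by 1.75 ± 0.32 on the log2 scale (SE, adjusted p = 2.61e-05 and 0.000497). ncRNA_aligned_2022 had 174 and 92.9 CPM in WT anti-GBM and 45.1 and 33.4 CPM in WT normal, and rose by 1.78 ± 0.34 in that fit (adjusted p = 0.00105). With library size alone in the same 9 libraries 14 were called higher and 3 lower. Shares of all transcripts called are not given for the 4 libraries alone or for library size alone, so those counts cannot be set against them. In the 12 libraries the median of the 140 was -0.34 with TMM and 0.38 with library size alone, 0.64 and 0.65 below that of all transcripts. For the transcripts matched to mouse lncRNA entries the median was -0.35 with TMM, close to that of the human entries.

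**Figure D5:**
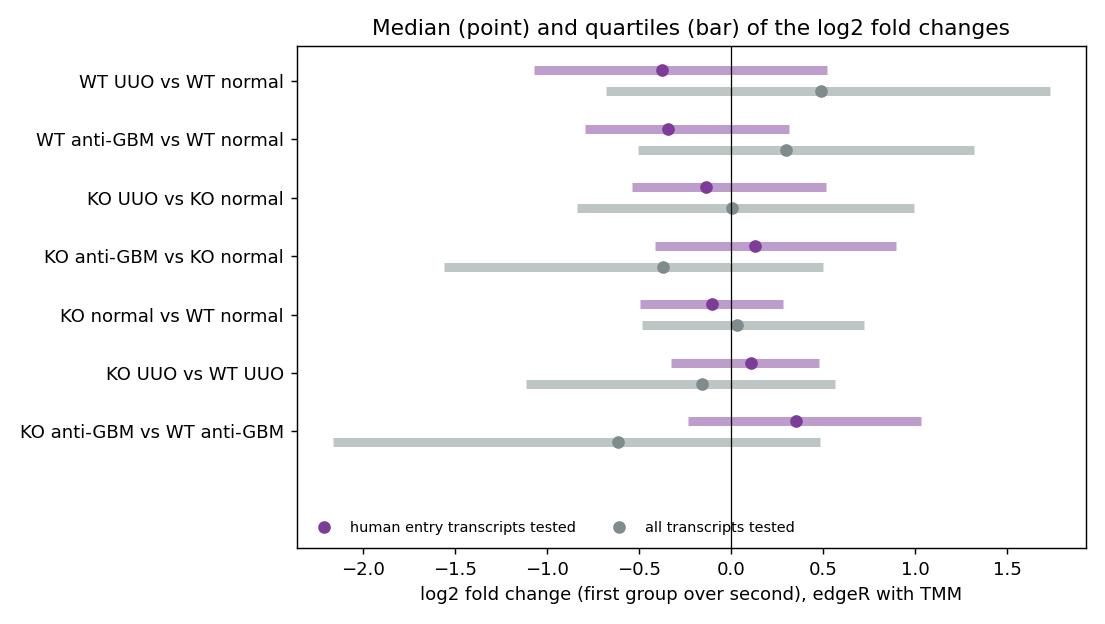
Median (point) and quartiles (bar) of the log2 fold changes with TMM scaling for the 140 human-entry transcripts tested and, beside each, all 24816 transcripts tested, in 7 comparisons of 2 groups. The human-entry median lies below that of all transcripts for both injuries in WT and above it for KO anti-GBM against WT anti-GBM, as they also do with library size alone, which shifts both medians. With TMM the median of the transcripts matched to mouse lncRNA entries, not shown, lies on the same side in these comparisons.

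In KO kidneys no human-entry transcript was called by edgeR after either injury, and DESeq2 called 0 for UUO and 1 for anti-GBM. In KO UUO against KO normal, where 0.0121% of all transcripts were called, 11 of the 140 passed an unadjusted p under 0.05, 9 lower and 2 higher, against 3.16% and 2.82% of all, 5.98% together. ncRNA_aligned_7830 had 65.3 and 251 CPM in KO UUO and 412 and 776 CPM in KO normal (adjusted p = 0.797). ncRNA_aligned_2717 had 13.3 and 49.5 CPM in KO UUO and 8.12 and 8.63 CPM in KO normal (adjusted p = 0.649), and ncRNA_aligned_7750 had 1.6 and 52.5 CPM in KO UUO and 76.7 and 103 CPM in KO normal (adjusted p = 0.894). KO UUO 1, of low breadth, is the lower library of its group in all 3. In the 9 libraries of higher breadth ncRNA_aligned_2717 was the 1 human-entry transcript called, higher by 2.54 ± 0.47 on the log2 scale (SE, adjusted p = 0.00237), against 0.427% of all transcripts higher and 0.85% in either direction. KO UUO is then KO UUO 2 alone.

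In KO anti-GBM against KO normal, where 0.0484% of all transcripts were called higher and 0.00403% lower, 0.0524% in all, 10 of the 140 passed an unadjusted p under 0.05, all higher, against 2.66% of all transcripts higher and 6.08% lower, 8.75% together. ncRNA_aligned_7558 had 97.4 and 20.7 CPM in KO anti-GBM and 8.53 and 9.76 CPM in KO normal (adjusted p = 0.54). ncRNA_aligned_2190 had 344 and 91 CPM in KO anti-GBM and 22.1 and 81.3 CPM in KO normal (adjusted p = 0.627), and ncRNA_aligned_5478 (14829 bases, class lincRNA) had 24.7 and 8.27 CPM in KO anti-GBM and 5.68 and 4.99 CPM in KO normal (adjusted p = 0.563). In these transcripts KO anti-GBM 1, of low breadth, was far above KO anti-GBM 2. Without the 3 libraries of low breadth none was called, against 0.947% of all transcripts.

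In normal kidney, KO against WT, no human-entry transcript was called by edgeR and 2 by DESeq2, where edgeR called 0.0161% of all transcripts. At an unadjusted p under 0.05, 4 were lower and 1 higher, against 1.14% and 1.08% of all, 2.22% together. ncRNA_aligned_2717 had 8.12 and 8.63 CPM in KO normal, against 49.6 and 66.8 CPM in WT normal, a log2 fold change of -2.79 ± 0.67 (SE, adjusted p = 0.367). ncRNA_aligned_4253 had 135 and 288 CPM in KO normal, against 534 and 660 CPM in WT normal (adjusted p = 1), and ncRNA_aligned_1022 (414 bases) had 10.8 and 14.3 CPM in KO normal, against 33.4 and 31.7 CPM in WT normal (adjusted p = 1). None of these groups overlap. Without the libraries of low breadth, all of which lie in other groups, 3 transcripts were called lower in KO normal, against 0.52% of all transcripts lower and 0.741% in either direction: ncRNA_aligned_2133, ncRNA_aligned_2717 (adjusted p = 0.000111) and ncRNA_aligned_4253 (adjusted p = 0.0213).

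Within UUO, ncRNA_aligned_2133 was the 1 human-entry transcript called between KO and WT, where 0.00403% of all transcripts were called lower and 0.00403% higher, 0.00806% in all. At an unadjusted p under 0.05, 6 of the 140 were higher and 3 lower in KO UUO, against 2.83% and 3.26% of all, 6.08% together. ncRNA_aligned_4253 had 345 and 509 CPM in KO UUO, against 128 and 197 CPM in WT UUO (adjusted p = 0.564). ncRNA_aligned_6502 had 39.5 and 23.8 CPM in KO UUO, against 15 and 9.32 CPM in WT UUO (adjusted p = 0.693), and ncRNA_aligned_883 (1995 bases, entry EF095209) had 70.7 and 47.5 CPM in KO UUO, against 198 and 72 CPM in WT UUO (adjusted p = 0.787). In each of these the KO and WT values do not overlap, and none passed the test. Their log2 fold changes in the 12 libraries were 1.40, 1.38 and -1.19 in the same order. In the 9 libraries of higher breadth they were 1.36, 1.33 and -0.61, with KO UUO 2 and WT UUO 2 alone for their groups.

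Within anti-GBM nephritis none was called between KO and WT by edgeR and 6 by DESeq2, where edgeR called 0.0161% of all transcripts higher and 0.00403% lower, 0.0201% in all. At an unadjusted p under 0.05, 23 of the 140 were higher and 4 lower in KO anti-GBM, against 4.34% and 10.4% of all, 14.8% together. ncRNA_aligned_5424 (2212 bases, entry S79449) had 294 and 64.8 CPM in KO anti-GBM, against 32.3 and 25.3 CPM in WT anti-GBM (adjusted p = 0.163). ncRNA_aligned_682 (2662 bases, entry U13221) had 47.4 and 11 CPM in KO anti-GBM, against 4.76 and 5.12 CPM in WT anti-GBM (adjusted p = 0.177). ncRNA_aligned_7497 (5523 bases, entry AF002816) had 17.5 and 17.1 CPM in KO anti-GBM, against 3.54 and 3.49 CPM in WT anti-GBM (adjusted p = 0.268). For the first 2, KO anti-GBM 1, of low breadth, lay far above its partner, while the libraries of ncRNA_aligned_7497 were nearly equal within each group.

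With the 9 libraries of higher breadth, where KO anti-GBM 2 stands alone for its group, 17 human-entry transcripts were called higher and 2 lower in KO anti-GBM, against 3.78% and 3.22% of all transcripts, 7% in all. The 17 included ncRNA_aligned_7830 (log2 2.11 ± 0.35, SE), ncRNA_aligned_3427 (2.30 ± 0.43), ncRNA_aligned_6502 (1.88 ± 0.41), ncRNA_aligned_7497 (2.28 ± 0.58) and ncRNA_aligned_792 (1.5 ± 0.33), with adjusted p from 0.000229 to 0.0126 in edgeR. ncRNA_aligned_6502 had 106.2 and 110 CPM in KO anti-GBM, against 20.5 and 38.7 CPM in WT anti-GBM, and ncRNA_aligned_792 (5790 bases, entry AF002713) had 1127 and 1133 CPM in KO anti-GBM, against 432 and 369 CPM in WT anti-GBM. For these 2 both KO libraries, of low and of higher breadth, were close to each other and above WT. The 2 lower ones were ncRNA_aligned_2133 and ncRNA_aligned_4062. With library size alone in the same 9 libraries, 2 were called higher and 11 lower, and all 17 higher fold changes stayed above 0. No share of all transcripts called is given for library size alone, so the 2 and the 11 cannot be set against it. In the 12 libraries, library size alone shifted the median of all transcripts by -0.76. Relative to the median of all transcripts, the median of the 140 in the 12 libraries stood 0.97 higher with TMM and 1.00 higher with library size alone. With TMM it was 0.36 for the 140, 0.19 for the transcripts matched to mouse lncRNA entries and -0.62 for all transcripts.

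The difference between the injury responses of KO and WT was tested directly. For UUO none of the 140 had an adjusted p under 0.05 in edgeR and 2 had in DESeq2, where 0.0604% of all transcripts did in edgeR, 0.0443% with a higher response in KO. Before adjustment, 4 had a higher and 3 a lower response in KO at p under 0.05, against 2.7% and 2.93% of all, 5.63% together. ncRNA_aligned_2717 came closest: its log2 response was 1.90 in KO and -2.40 in WT, a difference of 4.30 ± 0.92 (SE, adjusted p = 0.0917 in edgeR). Its reads covered at most 8.73% of its length in any library. For ncRNA_aligned_4253 the responses were 1.01 in KO and -1.88 in WT, a difference of 2.89 ± 0.66 (SE, adjusted p = 0.111). These 2 were picked after their values were seen, and their WT normal libraries were the highest of all 12. For anti-GBM none had an adjusted p under 0.05 in edgeR and 1 had in DESeq2, where 0.0161% of all transcripts did in edgeR. Before adjustment, 15 had a higher and 1 a lower response in KO at p under 0.05, against 2.79% and 7.21% of all, 10% together.

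In the 9 libraries of higher breadth the test called 4 transcripts for UUO, all with a higher response in KO, against 1.25% of all transcripts higher and 1.67% in either direction. They were ncRNA_aligned_2717 (difference 4.6 ± 0.71, SE, adjusted p = 0.000157 in edgeR), ncRNA_aligned_4253 (2.84 ± 0.58), ncRNA_aligned_3427 (2.55 ± 0.66) and ncRNA_aligned_4824 (2.20 ± 0.58). For anti-GBM it called 8 with a higher and 3 with a lower response in KO, against 2% and 2.31% of all, 4.31% together. The 8 included ncRNA_aligned_3427 (3.19 ± 0.57, adjusted p = 0.000801), ncRNA_aligned_7830, ncRNA_aligned_792 and ncRNA_aligned_2717, and the 3 were ncRNA_aligned_7619, ncRNA_aligned_453 and ncRNA_aligned_4062. The same 9 libraries called 7 transcripts higher and 1 lower in KO with the 3 states averaged, against 1.87% and 1.07% of all, 2.94% together, and with library size alone none higher and 7 lower.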

How the data were processed

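Each of the 12 tables lists, per the file headers, the read count (unique alignments) of each putative noncoding transcript, its length, a BLAST match to a noncoding RNA database and an RFAM family name. RNA over 150 bp was sequenced after removal of ribosomal RNA, per the labels' protocols. Bowtie 0.12.7 and mm9 are named, per the submitters' processing notes; transcript assembly, read assignment and strand are not given in the sources used here. The deposited RPKM equals the read count divided by length and by the table's sum of reads. The share of a transcript covered by reads is a deposited percent, and the mean depth is the deposited signal (coverage depth), which with count and length gives reads of 90 bases. Transcripts missing from a table were taken as 0 reads. No sequence or position of the transcripts was used here.

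The 178 transcripts were taken by their match text alone; they, the lists and the comparisons were chosen with earlier results of these data known. Counts of all transcripts were fitted in edgeR 4.0.16 (R 4.3.3) with TMM, filterByExpr by group (24816 kept), 1 mean per group and robust quasi-likelihood F tests of 10 contrasts. The p-values were adjusted by Benjamini-Hochberg within each contrast, over the 24816 transcripts, and not over the 10 contrasts. The call threshold was an adjusted p under 0.05. Shares of all transcripts called are those of edgeR with TMM. Counts called by DESeq2 or with another scaling have no such share beside them, so none of those counts above can be set against all transcripts. CPM use TMM-scaled totals; SE come from the F statistic. The script was tested on simulated data with less spread between libraries than these data have, so that test covers the code and not the calls. Nothing in the labels says that the libraries of a group came from separate animals, so p-values measure only the spread between these samples, which may be technical, and 2 libraries against 2 cannot give a permutation p below 0.3333. Named transcripts are those called, up to 10 in each direction; where fewer than 3 were called, the 3 largest differences without overlap among those averaging at least 10 CPM; the 10 highest in RPKM; the 5 smallest and 5 largest group ratios; and those at 0 in one group and at 10 or more reads in each library of the other. Alternatives were DESeq2 size factors, library size alone, no filter, 1 CPM in at least 4 libraries, the compared groups alone, the 9 libraries of higher breadth, each library left out, and DESeq2 1.42.0; the 9 libraries with the other scalings, and the fold bounds with a library left out, were added after seeing the data.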

Additional observations from a re-analysis of the deposited data

How the results depend on the processing

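No paired analysis was possible because the labels carry no replicate numbers: 1 and 2 were given in listing order and only name the libraries. Counts of human-entry transcripts called, of either direction, moved as follows. In WT UUO against WT normal (3 with TMM) they were 10 with library size alone, 9 with no low-count filter, 11 with DESeq2, and 24, 33 and 21 with the 9 libraries of higher breadth and TMM, library size alone and DESeq2 size factors. In WT anti-GBM against WT normal (0) they were 1 with library size alone, 1 with no filter, 20 with the compared groups alone, 2 with DESeq2, and 19, 17 and 16 with the 9 libraries under those scalings. In KO UUO against KO normal (0) they were 1 with no filter and 1, 4 and 1 with the 9 libraries. In KO anti-GBM against KO normal (0) they were 1 with no filter and 1 with DESeq2. In KO normal against WT normal (0) they were 1 with DESeq2 size factors, 1 with library size alone, 2 with no filter, 2 with the compared groups alone, 2 with DESeq2 and 3 with the 9 libraries under each scaling. In KO UUO against WT UUO (1) they were 0 with the stricter filter and 0 with the compared groups alone. In KO anti-GBM against WT anti-GBM (0) they were 1 with DESeq2 size factors, 2 with library size alone, 3 with no filter, 6 with DESeq2 and 19, 13 and 21 with the 9 libraries. For the genotypes averaged (1) they were 2 with DESeq2 and 8, 7 and 8 with the 9 libraries. For the difference of the UUO responses (0) they were 2 with no filter, 2 with DESeq2 and 4, 1 and 4 with the 9 libraries, and for anti-GBM (0) they were 1 with DESeq2 and 11 with the 9 libraries under each scaling. The cause of these moves was not tested. Shares of all transcripts called are given above for the 12 libraries with TMM and, for most comparisons, for the 9 libraries with TMM. For the other settings, here and below, no such share is given. Their counts therefore do not separate the human-entry transcripts from a general change in calls.

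With each library left out in turn the count ranged from 0 to 7 for WT UUO against WT normal, where it was 6 or 7 without any 1 of the KO UUO and KO anti-GBM libraries, 1 without WT UUO 1 and 0 without either WT normal library, from 0 to 2 for the difference of the UUO responses, from 1 to 2 for the genotypes averaged, and from 0 to 1 for WT anti-GBM and KO UUO against their normal groups and for KO against WT in normal kidney, UUO and anti-GBM. It stayed at 0 for KO anti-GBM against KO normal and for the difference of the anti-GBM responses. ncRNA_aligned_2133 passed the averaged genotype test in all 12 of these fits, with adjusted p from 1.96e-05 to 0.00218. Among the fold changes of named transcripts, 56 alternatives newly passed the threshold, 25 no longer did, none changed direction and the others kept their side of it. Counts of a few reads, as in ncRNA_aligned_10785, and groups of 2 libraries limit the precision of these values.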

Other observations

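RFAM family names stood beside 33 of the 178 human-entry transcripts (18.5%), against 14.0% of the transcripts matched to mouse lncRNA entries and 10.0% of all transcripts. Among all transcripts with a database match the share was 17.8%, close to that of the human entries. The names were of 14 families: 6 transcripts carried the signal recognition particle model, 4 the model IRES_Hsp70 and 3 the small nucleolar RNA model snoU85. Small nucleolar RNAs guide chemical changes on other RNAs and are often cut from introns of longer hosts. The transcripts with these names had very different levels. ncRNA_aligned_6404 (1443 bases, model SNORA73) averaged 105 ± 35.7 RPKM (SD, n = 12) and ncRNA_aligned_792 (model snR37) 105.5 ± 27.4 RPKM, while the 4 transcripts with IRES_Hsp70, of 15053 to 15817 bases, were at or below 0.0663 RPKM. The 6 transcripts with the signal recognition particle model lay between 1.08 and 26.7 RPKM. Some of these names are models of bacterial, viral or yeast RNAs, so a name says only that a model was listed.

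Levels also differed within entries. The entry of ncRNA_aligned_2190 held 3 transcripts of 497 to 686 bases and 33055 reads in all, of which ncRNA_aligned_2192 took 55.3%. ncRNA_aligned_8121 had 1174, 637 and 1245 reads in the libraries of low breadth KO UUO 1, KO anti-GBM 1 and WT UUO 1, and 80 to 486 reads in the other 9, and ncRNA_aligned_2192 had 2590, 2553 and 2691 reads in those 3. Of entry AL137373, ncRNA_aligned_4610 had 8 reads in KO anti-GBM 1 while the longer ncRNA_aligned_4611 (5005 bases) had 92. By class, the 9 lincRNA transcripts had a median length of 13625 bases and a median level of 0.787 RPKM, and the 42 of the class lncRNA 1146.5 bases and 9.80 RPKM. The 127 of the class mRNAlike lncRNA held 78.8% of the reads. The 41 transcripts under 1000 bases took 11.5% to 23.8% of the human-entry reads of a library.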
